A study of Mus musculus with 6 samples.

Results

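The let-7 passenger strands are the 3p arms of the let-7 hairpins, taken as the 10 listed rows of the deposited miRNA table that carry a let-7 name ending in 3p. Of 1414 rows in all, these 10 held 9 distinct sequences, because let-7c-2-3p and let-7a-1-3p share a sequence and its counts and are 1 measurement, written let-7a-1/c-2-3p here. The samples were pancreas of C57BL/6 mice of 22 to 25 g, 3 libraries from an acute pancreatitis model (replicates 56, 57 and 59) and 3 from controls (43, 44 and 45). Model mice received 7 intraperitoneal injections at intervals of 1 hour of caerulein, at a dose that the labels give as 50 mg/kg, with lipopolysaccharide (LPS) added to the last injection, and control mice received saline alone. The treatment field adds saline to the entry of both groups, and its role in the model is not stated. Tissue was taken 24 hours after the first injection, and sex and age are not given in the labels. Caerulein and LPS were not given separately, so their effects cannot be told apart. Whether the libraries are of separate mice is not stated, and p-values therefore measure only a spread between libraries that may be technical.

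A miRNA hairpin is cut by Drosha and Dicer into a short duplex. An Argonaute protein keeps the guide strand, which represses mRNAs through its seed, while the passenger strand is usually discarded and degraded. In the let-7 family, known for holding cells in a differentiated state, the guide is the 5p arm and all guides share a seed, whereas the 3p arms do not.

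The 3p arms are shown with bases 2 to 8, the seed, in capitals, since the seed is what divides them into groups. All 10 member rows matched RefSeq (GRCm38.p6) by name and sequence.
mmu-let-7a-1-3p, also mmu-let-7c-2-3p: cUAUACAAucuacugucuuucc
mmu-let-7b-3p: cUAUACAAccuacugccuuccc
mmu-let-7f-1-3p: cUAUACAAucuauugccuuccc
mmu-let-7d-3p: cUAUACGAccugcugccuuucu
mmu-let-7e-3p: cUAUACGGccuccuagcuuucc
mmu-let-7c-1-3p: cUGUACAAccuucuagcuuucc
mmu-let-7a-2-3p: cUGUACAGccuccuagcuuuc
mmu-let-7g-3p: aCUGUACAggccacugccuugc
mmu-let-7i-3p: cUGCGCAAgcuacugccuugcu
The seed UAUACAA was shared by let-7a-1-3p, let-7c-2-3p, let-7b-3p and let-7f-1-3p, and by miR-98-3p, while each of the other members had a seed of its own among the known mouse rows of the table. The 3p arms began with C, apart from let-7g-3p, which began with A. Their guides are represented by let-7a-5p and let-7d-5p, printed in the same way.
let-7a-5p: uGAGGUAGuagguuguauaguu
let-7d-5p: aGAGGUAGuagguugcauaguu
All 9 guides of the let-7 and miR-98 hairpins used here carried the seed GAGGUAG and began with U, apart from let-7d-5p, which began with A. The row let-7k, whose name gives no arm, has the same seed and is not counted among these guides.

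Besides the 10 members, let-7f-2-3p also fits the name pattern and miR-98-3p comes from miR-98, another hairpin of the family, and both are described beside the members.
let-7f-2-3p: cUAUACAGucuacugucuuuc
miR-98-3p: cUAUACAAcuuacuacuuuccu
Aligned from the first base, let-7f-2-3p differed from let-7a-1-3p at 1 of 21 bases, let-7a-2-3p from let-7c-1-3p and from let-7e-3p at 2 of 21, and let-7b-3p from let-7f-1-3p at 2 of 22. The sources used here do not say how reads were split between such near-identical arms, so these rows are uncertain at low counts.

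Hairpins of 3 members are shown with both mature arms in capitals, 5p first. They are the most abundant member (let-7d-3p), the only member with a higher mean level in the model (let-7i-3p) and a near-absent member (let-7b-3p).
Mirlet7d: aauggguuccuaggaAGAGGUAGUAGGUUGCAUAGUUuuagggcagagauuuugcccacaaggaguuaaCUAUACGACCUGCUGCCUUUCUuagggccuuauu
Mirlet7i: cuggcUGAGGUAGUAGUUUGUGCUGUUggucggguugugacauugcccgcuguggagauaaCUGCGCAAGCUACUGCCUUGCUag
Mirlet7b: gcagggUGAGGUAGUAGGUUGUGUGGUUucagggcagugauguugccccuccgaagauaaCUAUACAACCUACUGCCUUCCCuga
Mirlet7d lies at chr13:48536012-48536114 on the minus strand of GRCm38.p6, in a cluster with Mirlet7f-1 (48537829 to 48537917) and Mirlet7a-1 (48538179 to 48538272), all in exons of the long noncoding 6720427I07Rik in GENCODE M21. Mirlet7i lies at chr10:122985640-122985724 on the minus strand, in an exon of the transcribed pseudogene D630033A02Rik. Mirlet7b at chr15:85707319-85707403 and Mirlet7c-2 at chr15:85706603-85706697 lie on the plus strand in exons of the noncoding Lncppara. Mirlet7c-1 at chr16:77599657-77599750, on the plus strand, lies in an intron of the noncoding Mir99ahg, and Mirlet7e at chr17:17830352-17830444, on the plus strand, in an intron of Spaca6. Mirlet7a-2 at chr9:41536716-41536811, on the plus strand, lies in an intron of the long noncoding Gm49317, and Mirlet7g at chr9:106178840-106178927, on the plus strand, in an intron of Wdr82.

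Total counts over distinct sequences ran from 2487229 to 3004304 in model and from 1942801 to 2628155 in control libraries. Levels are given as CPM, read counts scaled to a common library size with edgeR's TMM factors. In CPM, the limit set by a count of 0 (3 counts) was 0.902 to 1.12 CPM in model and 1.16 to 1.81 CPM in control libraries. Acinar and islet markers of pancreas were abundant: miR-216a-5p averaged 21091 ± 1793 CPM in model and 27745 ± 7055 CPM in control libraries, and miR-375-3p 36897 ± 5103 and 60454 ± 9462 CPM in the same order (SD, n = 3 each). All 13 markers of acinar, islet, leukocyte, erythroid, muscle and liver cells were detected. Of 3 leukocyte markers, 2 lay higher in each model library than in each control (15.2% of all rows tested did) and 1, miR-223-3p, was called higher by edgeR (1.02% of all rows). The other leukocyte marker, miR-150-5p, pointed lower, with 3469 ± 2234 CPM in model and 4384 ± 782 CPM in control libraries. Its groups overlapped (log2 fold change -0.34, SE 0.46, adjusted p = 0.727 by edgeR). Lower in each model library than in each control were 2 of 4 acinar markers and the islet marker (16.5% of all rows), and none of these was called. The 3 leukocyte markers summed to 4535 to 9183 CPM in model and 4322 to 6248 CPM in control libraries, the 4 acinar markers to 47993 to 51263 and 54517 to 93116 CPM, the islet marker was at 31023 to 40238 and 50893 to 69815 CPM, the 2 erythroid markers summed to 7066 to 11992 and 10597 to 13561 CPM, the 2 muscle markers to 79.3 to 95.7 and 60.3 to 128.9 CPM, and the liver marker was at 72.6 to 127.0 and 41.0 to 337.3 CPM. In tissue, fewer cells of a type and less RNA per cell cannot be told apart, and what part the makeup of cells has in the values below was not tested.

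The passenger strands differed far more in level than their guides did. The most abundant was let-7d-3p, with 3396, 2207 and 3120 CPM in model libraries 56, 57 and 59 and 3245, 5918 and 3554 CPM in control libraries 43, 44 and 45. Next came let-7i-3p, with 707, 482 and 244 CPM in the model and 299.9, 269.8 and 150.1 CPM in the control libraries. In every library let-7d-3p exceeded let-7i-3p, which exceeded let-7a-1/c-2-3p, which exceeded let-7e-3p.

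The sequence let-7a-1/c-2-3p was at 51.8, 62.8 and 57.1 CPM in the model and 127.5, 211.3 and 84.4 CPM in the control libraries. For let-7e-3p the values were 22.7, 23.1 and 27.7 CPM in the model and 49.8, 86.6 and 44.01 CPM in the control libraries. Both sequences therefore lay lower in each model library than in each control, and control 44 held the highest value of both. For let-7c-1-3p the counts were 4, 5 and 6 in model and 11, 46 and 14 in control libraries, or 1.61 ± 0.169 CPM in model and 11.5 ± 9.21 CPM in control (SD, n = 3 each). In the model it could not be ranked against let-7a-2-3p, which had 10, 8 and 5 counts in model and 5, 6 and 6 in control libraries.

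The remaining members were close to absent. Over all 6 libraries let-7b-3p had 3 reads, let-7g-3p 5 and let-7f-1-3p 6. Summed per group with 95% exact Poisson intervals, let-7b-3p had 1 read in model (0.0253 to 5.57) and 2 in control (0.242 to 7.22), let-7g-3p 3 (0.619 to 8.77) and 2 (0.242 to 7.22), and let-7f-1-3p 2 (0.242 to 7.22) and 4 (1.09 to 10.2). These intervals cover counting error only. At this depth no order among these 3 and no difference between groups was detectable.

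**Figure D1:**
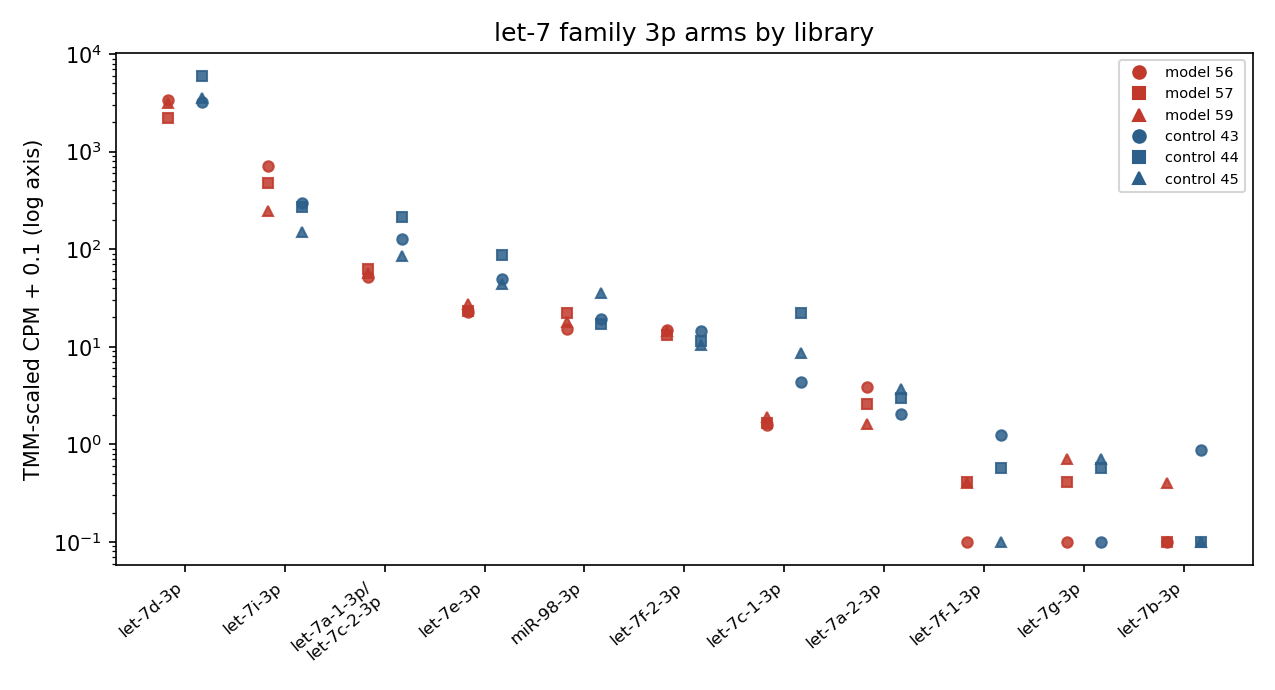
Levels of the 3p arms of the let-7 family in each library, as TMM-scaled CPM plus 0.1 on a log axis, with model libraries (red) left of control libraries (blue) and the arms ordered by mean level. The arms run from let-7d-3p, at 2207 to 5918 CPM, down to let-7b-3p, with 3 reads in all.

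Set against its guide, a passenger strand ranged from a sizeable part of the hairpin's reads to a near-absent trace. Of the reads on the let-7d hairpin, let-7d-3p took 13.9% ± 3.04 in model and 16.9% ± 5.25 in control libraries (SD, n = 3 each). The share ran from 10.4% in model 57 (95% Clopper-Pearson interval 10.2 to 10.6) to 22.8% in control 44 (22.5 to 23.2). All intervals in this paragraph cover counting error only, not the spread between libraries. For let-7i-3p the share was 2.00% ± 0.894 in model and 0.922% ± 0.319 in control, and for let-7e-3p 0.495% ± 0.102 in model and 1.59% ± 1.12 in control (SD, n = 3 each). At the other end let-7b-3p took 0.000755% of 397386 guide reads plus its own over all 6 libraries (interval 0.000156 to 0.00221), although let-7b-5p, at 23066 ± 1307 CPM in model and 29192 ± 1511 CPM in control libraries, was close in level to let-7i-5p, at 23109 ± 1227 and 25885 ± 781 CPM in the same order. For let-7g-3p the share was 0.00135% (0.000439 to 0.00315), with 369865 guide reads. More than 1 hairpin makes each of let-7a-5p, let-7f-5p and let-7c-5p, so reads of these guides cannot be assigned to a locus, whereas some 3p arms have a sequence of their own. Over all libraries let-7f-2-3p had 209 reads against 6 of let-7f-1-3p, and let-7a-1/c-2-3p had 1447 reads against 40 of let-7a-2-3p and 86 of let-7c-1-3p. The lower of these counts belong to the near-identical arms named above, and may hold reads of another arm.

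The design sets pancreatitis pancreas against saline pancreas. No let-7 passenger strand passed the test over all rows, and the members pointed in opposite directions. Of the 9 distinct sequences, 5 passed the filter on low counts, namely let-7d-3p, let-7i-3p, let-7e-3p, let-7c-1-3p and let-7a-1/c-2-3p, and let-7c-1-3p passed through its control libraries alone. edgeR's quasi-likelihood test called 0 of the 5 at an adjusted p below 0.05, where 1.22% of the 492 rows tested were called (1.02% higher and 0.203% lower). Because of how let-7c-1-3p passed, it had to be higher in controls, and it is left out of the counts that follow. At an unadjusted edgeR p under 0.05, 2 of the other 4 were lower and 0 higher, against 12.2% lower and 11.4% higher over all rows. DESeq2 called 2 lower, let-7e-3p and let-7a-1/c-2-3p, and gave no adjusted p for let-7c-1-3p. Over all 492 rows DESeq2 called 19 lower and 22 higher, more than edgeR did.

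For let-7a-1/c-2-3p, the mean was 57.2 ± 5.50 CPM in model and 141.1 ± 64.5 CPM in control libraries (SD, n = 3 each), which is a log2 difference of -1.30 (SE 0.35, 95% interval -2.12 to -0.48, edgeR adjusted p = 0.0830). For let-7e-3p it was 24.5 ± 2.75 CPM in model and 60.2 ± 23.1 CPM in control, which is also a log2 difference of -1.30 (SE 0.32, interval -2.03 to -0.56, edgeR adjusted p = 0.0731). For the scarce let-7c-1-3p the log2 difference was -2.79 (SE 0.67, interval -4.35 to -1.24, edgeR adjusted p = 0.0713), a value shaped by the filter that rests on 15 reads in model and 71 in control libraries, 46 of them in control 44. For 2 of the other 4 the groups did not overlap, both lower in the model, a pattern that 16.5% of all rows tested had (31.7% in either direction).

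The abundant let-7d-3p averaged 2908 ± 622 CPM in model and 4239 ± 1462 CPM in control libraries, and its groups overlapped (log2 fold change -0.54, SE 0.28, interval -1.20 to 0.12, edgeR adjusted p = 0.292). In the other direction, let-7i-3p averaged 478 ± 231 CPM in model and 239.9 ± 79.2 CPM in control (log2 fold change 0.99, SE 0.44, interval -0.03 to 2.01, edgeR adjusted p = 0.217). Model 59, at 244 CPM, lay within the control range, and models 56 and 57 above it. Outside the member list, let-7f-2-3p was at 14.2 ± 0.859 CPM in model and 12.0 ± 2.08 CPM in control (log2 fold change 0.24, SE 0.29, adjusted p = 0.700 by edgeR), although it differs from let-7a-1-3p at 1 aligned base. For miR-98-3p the means were 18.5 ± 3.47 CPM in model and 24.0 ± 10.1 CPM in control (log2 fold change -0.37, SE 0.36, adjusted p = 0.625 by edgeR).

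As a description, the median log2 fold change of the 4 tested members other than let-7c-1-3p was -0.92. Over all 492 rows it was 0.01, over the 9 guides of the let-7 and miR-98 hairpins -0.34, and over 147 passenger strands, defined as the scarcer arm of each hairpin with both arms tested, 0.06. Of those 147 passenger strands 2 were called higher and 0 lower, and 15 were higher and 19 lower at an unadjusted edgeR p under 0.05. These 4 members ran from -1.30 to 0.99, and the guides from -0.50 for let-7c-5p to 0.24 for let-7e-5p.

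**Figure D2:**
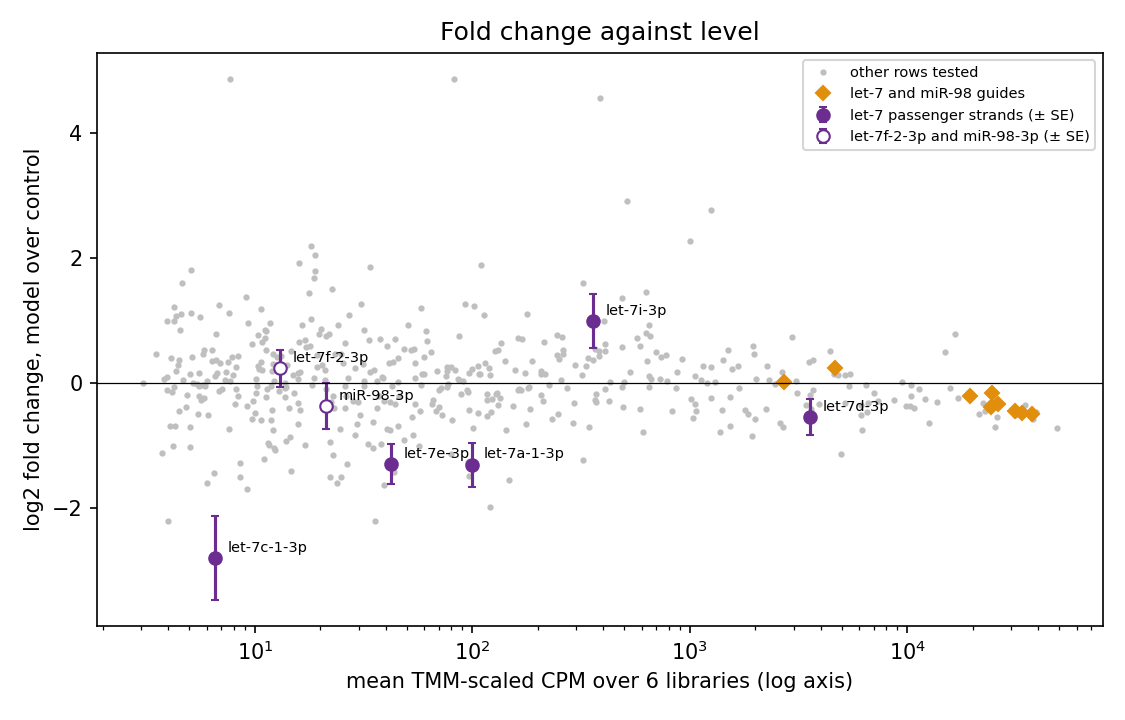
Log2 fold change, model over control, against mean CPM over the 6 libraries (log axis) for the 492 rows tested. Filled purple circles are the let-7 passenger strands, open ones let-7f-2-3p and miR-98-3p (bars, SE), and orange diamonds the guides. The guides lie between -0.50 and 0.24, and the passenger strands between -1.30 and 0.99, apart from let-7c-1-3p at -2.79, which passed the count filter through its control libraries alone.

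Fold changes depend on how libraries are scaled, and the sign of let-7d-3p does. With the totals recovered from the authors' RPM values in place of TMM factors, the median of all rows shifted by 0.77 on the log2 scale. The log2 fold change of let-7d-3p was then 0.21, that of let-7i-3p 1.66 (edgeR adjusted p = 0.0185), and those of let-7e-3p and let-7a-1/c-2-3p -0.53 and -0.55. The adjusted p of let-7i-3p ran from 0.0185 to 0.471 over its alternatives. Summed over the 9 sequences, the passenger strands were at 4183, 2780 and 3453 CPM in model and 3731, 6511 and 3845 CPM in control libraries, or 3472 ± 702 CPM in model and 4696 ± 1573 CPM in control (SD, n = 3 each), and the groups overlapped. Most of each sum was let-7d-3p. Their makeup, which needs no scaling, held 13.8% ± 5.81 of let-7i-3p in model and 5.36% ± 2.32 in control libraries (SD, n = 3 each), and 83.6% ± 5.87 and 90.1% ± 2.80 of let-7d-3p, with 7.08% of let-7i-3p in model 59 inside the control range of 3.90% to 8.04%. The share of let-7e-3p was 0.725% ± 0.158 in model and 1.27% ± 0.109 in control libraries, and that of let-7a-1/c-2-3p 1.72% ± 0.513 in model and 2.95% ± 0.662 in control.

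Dividing 3p by 5p counts within a library, which is passenger to guide in the let-7 family, also needs no scaling. This ratio was tested with limma over the 147 hairpins whose arms each averaged 10 counts or more, and in 92 of these the 3p arm was the scarcer one. Of 5 members in the test 0 passed, where 0.68% of hairpins did (1 hairpin, miR-21a). One of the 5, let-7c-1-3p, averaged 5 counts in model libraries and met the minimum through its controls alone, so it is not counted here. At an unadjusted limma p under 0.05 it was 1 of the other 4, let-7e-3p, against 15% of all hairpins. On the let-7e hairpin the log2 ratio of 3p to 5p was -7.97, -7.62 and -7.37 in model and -6.65, -5.06 and -6.75 in control libraries. The groups did not overlap, as in 19% of all hairpins, and the difference was -1.50 (SE 0.51, interval -2.69 to -0.31, limma adjusted p = 0.271). The guide pointed the other way, since let-7e-5p averaged 5008 ± 681 CPM in model and 4253 ± 1166 CPM in control libraries (log2 fold change 0.24, SE 0.24, adjusted p = 0.626 by edgeR).

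On the let-7i hairpin the log2 ratio was -5.06, -5.63 and -6.47 in model and -6.38, -6.61 and -7.45 in control libraries, a difference of 1.09 (SE 0.47, interval -0.03 to 2.20, limma adjusted p = 0.327), with model 59 inside the control range. Its guide let-7i-5p differed by -0.16 on the log2 scale (SE 0.10, adjusted p = 0.375 by edgeR), with each model library below each control. The let-7c-1-3p ratio to let-7c-5p was -14.10, -14.13 and -13.67 in model and -13.09, -10.95 and -12.35 in control libraries. The difference was -1.84 (SE 0.55, interval -3.14 to -0.54, limma adjusted p = 0.265), a value that rests on the high control counts through which it was tested. The ratio of let-7a-1/c-2-3p to the sum of let-7a-5p and let-7c-5p was -10.23, -9.95 and -9.85 in model and -9.24, -8.64 and -10.01 in control libraries. The difference was -0.71 (SE 0.41, interval -1.67 to 0.25, limma adjusted p = 0.451), with control 45 inside the model range. The ratio of let-7d-3p was -2.39, -3.11 and -2.48 in model and -2.73, -1.76 and -2.54 in control libraries. Its groups overlapped, with a difference of -0.32 (SE 0.39, interval -1.23 to 0.60, limma adjusted p = 0.814). Outside the members, let-7f-2-3p had a difference of 0.68 against let-7f-5p with groups that did not overlap (SE 0.30, limma adjusted p = 0.327), and miR-98-3p one of -0.34 (SE 0.45, limma adjusted p = 0.814).

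**Figure D3:**
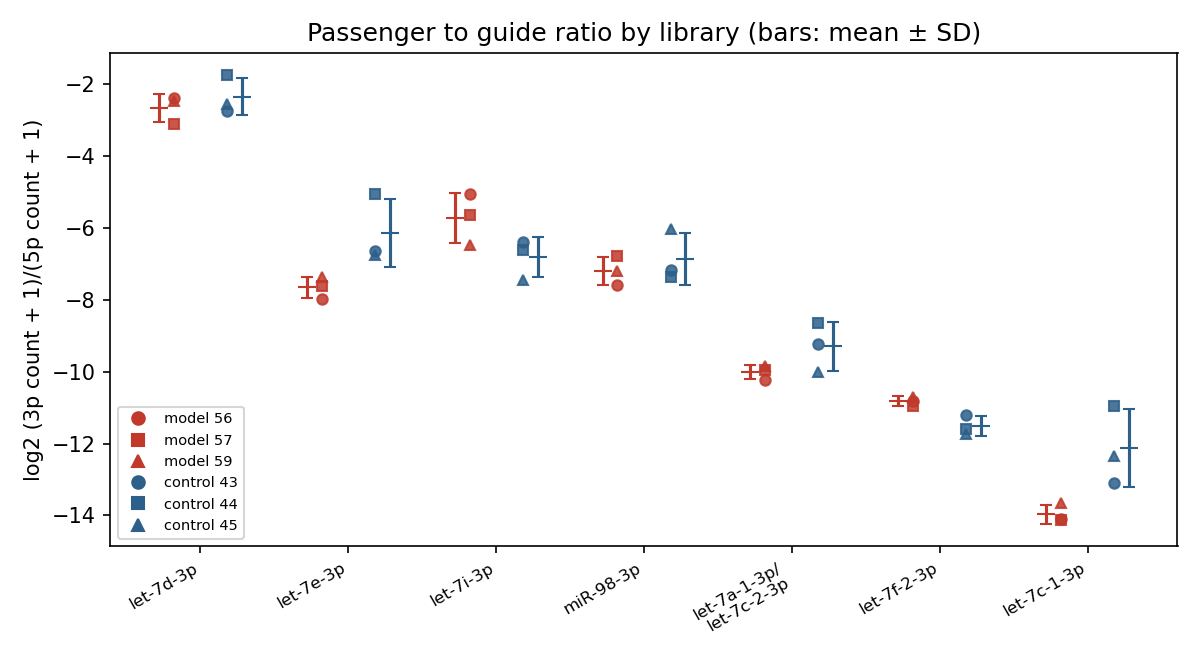
Log2 ratio of 3p to 5p counts, with 1 count added to each, in each library, with model (red) left of control (blue) and bars for the mean ± SD of 3 libraries. The model libraries lie below all controls for let-7e-3p and above all controls for let-7f-2-3p. They also lie below all controls for let-7c-1-3p, which met the count minimum through its controls alone. Control 44 is the highest for let-7d-3p, let-7e-3p and let-7a-1-3p.

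Control 44 held the highest ratio and the highest CPM of let-7d-3p, let-7e-3p and let-7a-1/c-2-3p, and model 56 those of let-7i-3p. The highest values of let-7c-1-3p, also in control 44, are not counted, since it was tested through its control libraries alone. Among the 92 hairpins whose 3p arm was the scarcer one, the ratio was highest in control 44 in 31.5%. Without control 44 the log2 fold change was -0.90 for let-7a-1/c-2-3p, -0.94 for let-7e-3p, -1.92 for let-7c-1-3p, -0.23 for let-7d-3p and 1.08 for let-7i-3p. The log2 ratio differences were then -0.38 for let-7a-1/c-2-3p, -0.95 for let-7e-3p, -0.02 for let-7d-3p and 1.19 for let-7i-3p, and let-7c-1-3p was under the count minimum. Without model 56 the log2 fold change of let-7i-3p was 0.64.

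Most guides of the family lay slightly lower in the model, and whether any was called depended on the scaling. Of 9 guides 0 were called by edgeR with TMM factors (1.22% of all rows were), 5 were lower and 0 higher at an unadjusted p under 0.05 (12.2% and 11.4% of all rows), and 7 lay lower in each model library than in each control (16.5% of all rows). With upper quartile factors 4 were called lower (let-7a-5p, let-7c-5p, let-7f-5p and let-7g-5p), with RLE factors 2 (let-7a-5p and let-7f-5p) and without a filter 1 (let-7c-5p), while 1, let-7e-5p, was called higher with the RPM totals. Over all rows, 33 of 492 were called lower with upper quartile factors, 8 of 492 with RLE factors and 32 of 1400 without a filter. With the RPM totals 116 of 496 rows were called higher. Guide let-7a-5p averaged 28156 ± 2290 CPM in model and 39334 ± 2138 CPM in control libraries (log2 fold change -0.48, SE 0.11, adjusted p = 0.0676 by edgeR), and let-7d-5p 18081 ± 854 and 20765 ± 797 CPM (-0.20, SE 0.10, adjusted p = 0.292 by edgeR). With the RPM totals these were 0.30 and 0.57, and with total counts alone let-7d-5p was at 0.08.

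Hairpins of the same cluster, set side by side, gave passenger strands of very different level and of either sign. On chromosome 13, where the mature arms of let-7d, let-7f-1 and let-7a-1 span 2237 bases, let-7d-3p had 53397 reads over all libraries and let-7f-1-3p 6, and on chromosome 15, where the mature arms of let-7c-2 and let-7b span 785 bases, let-7b-3p had 3. Up to 1447 reads of let-7a-1/c-2-3p belong to either cluster. On chromosome 17 the mature arms of miR-99b, let-7e and miR-125a span 683 bases, and the 3p arms of the neighbours lay higher in each model library than in each control, opposite to let-7e-3p. For miR-99b-3p the values were 119, 69.6 and 55.0 CPM in model and 34.4, 38.1 and 33.2 CPM in control libraries (log2 fold change 1.20, SE 0.33, adjusted p = 0.0830 by edgeR). For miR-125a-3p they were 25.3, 36.0 and 21.9 CPM in model and 18.9, 15.2 and 13.9 CPM in control libraries (0.79, SE 0.31, adjusted p = 0.164 by edgeR). On chromosome 16 miR-99a and miR-125b-2 flank let-7c-1, and the mature arms span 47400 bases, far more than in the clusters above. There miR-125b-2-3p averaged 23.0 ± 4.39 CPM in model and 36.3 ± 2.39 CPM in control libraries (-0.66, SE 0.26, adjusted p = 0.164 by edgeR) and miR-99a-5p 25746 ± 2213 and 36572 ± 4510 CPM (-0.51, SE 0.13, adjusted p = 0.0731 by edgeR). The other passenger strand there, miR-99a-3p, was at 35.9 ± 2.68 CPM in model and 31.6 ± 12.0 CPM in control libraries (0.17, SE 0.33, adjusted p = 0.805 by edgeR). On chromosome 9 the mature arms of miR-100, let-7a-2 and miR-125b-1 span 50565 bases. There miR-125b-1-3p averaged 43.3 ± 20.5 CPM in model and 18.0 ± 3.13 CPM in control libraries (1.26, SE 0.39, adjusted p = 0.117 by edgeR). The remaining arms, each with overlapping groups, had log2 fold changes of 0.18 for miR-100-3p, -0.19 for miR-100-5p, -0.64 for miR-125a-5p, -0.16 for miR-99b-5p and -0.51 for miR-125b-5p, which both miR-125b hairpins make. Of the 11 neighbouring arms tested, 0 were called by edgeR with TMM factors (1.22% of all rows) and 3 were higher and 2 lower at an unadjusted p under 0.05 (11.4% and 12.2% of all rows). The groups did not overlap for 3 higher and 2 lower arms (15.2% and 16.5% of all rows), and the median log2 fold change was -0.16. Called higher were miR-99b-3p and miR-125b-1-3p with DESeq2 and without a filter, these and miR-125a-3p with the RPM totals, and miR-99b-3p with total counts alone, and called lower was miR-99a-5p with upper quartile factors and without a filter. Over all rows, called higher were 22 of 492 with DESeq2, 23 of 1400 without a filter, 116 of 496 with the RPM totals and 17 of 492 with total counts alone. Called lower were 33 of 492 with upper quartile factors and 32 of 1400 without a filter. Differences between arms of a cluster were not tested.

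**Figure D4:**
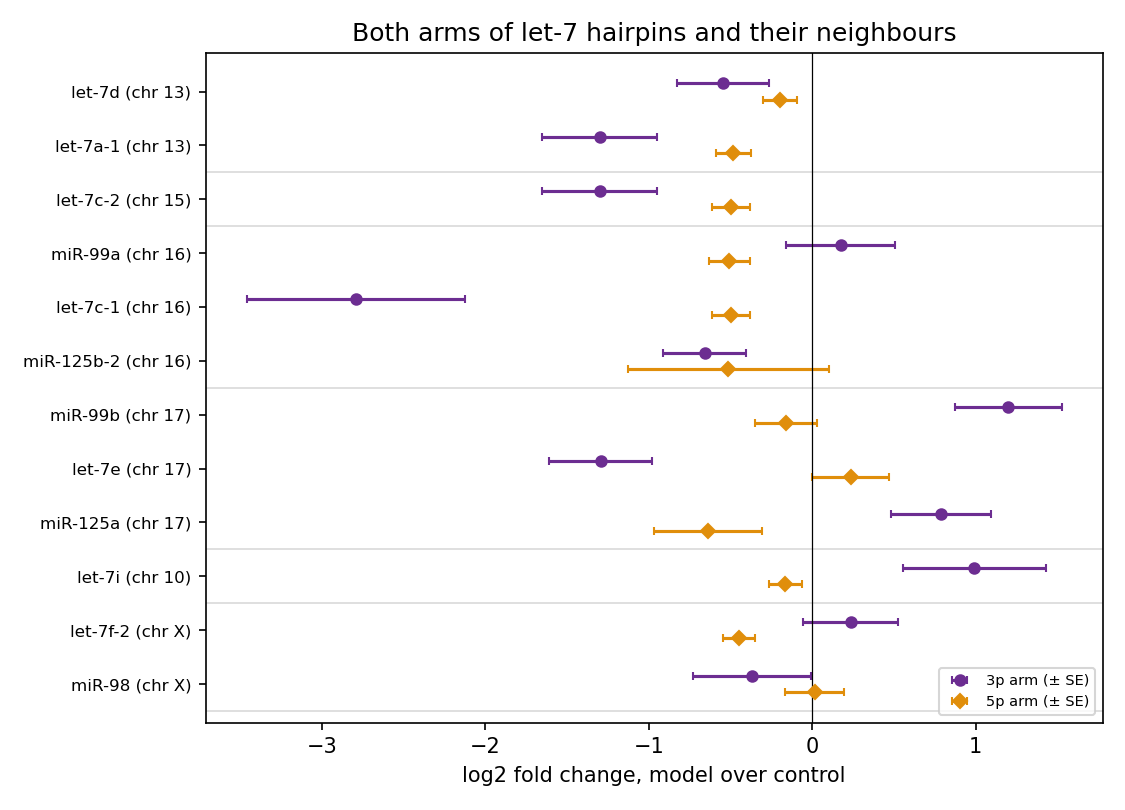
Log2 fold change, model over control, of the 3p (purple) and 5p arm (orange) of let-7 hairpins and their chromosomal neighbours (bars, SE), grouped by chromosome. The sequence shared by let-7a-1 and let-7c-2, and guides made by 2 hairpins, appear once for each hairpin. On chromosome 17 let-7e-3p is at -1.30 and miR-99b-3p at 1.20.

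Profiles most like those of the 3 most abundant members were sought among tested rows outside the list, by the root-mean-square difference of log2(CPM + 1) centred on its mean over the 6 libraries. The nearest to let-7d-3p were miR-3084-3p, at a difference of 0.15, and miR-433-3p, at 0.18, where the median over all rows was 0.57. The nearest to let-7i-3p were miR-341-3p (0.26) and miR-329-5p (0.31), with a median of 0.83. The nearest to let-7a-1/c-2-3p were miR-744-3p (0.23) and miR-490-5p (0.24), with a median of 0.82. None of these 6 rows was called by edgeR (1.22% of all rows were), with log2 fold changes from -1.41 for miR-490-5p to 0.93 for miR-329-5p. The groups of 3 of the 6, miR-490-5p, miR-744-3p and miR-329-5p, did not overlap (31.7% of all rows tested, in either direction). The 6 rows were chosen for following a member over these same libraries, so that count is partly set by the choice.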

How the data were processed

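Small RNA of 18 to 30 nt was gel-cut from 1 µg of total RNA, ligated to adapters carrying unique molecular identifiers and amplified by PCR, per the labels' protocols. The authors deposited a table of whole-number read counts per mature miRNA, with no normalization, and RPM values. Dividing count by RPM in rows with 100 counts or more gave the authors' scaling totals, 22055639 to 27876715 per library. Their content, and whether identifiers were collapsed, are not given in the sources used here. Bowtie2 and GRCm38.p6 are named, per the submitters' processing notes. Uncollapsed PCR duplicates would make counts look more precise than they are, and ligation bias distorts levels between miRNAs.

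Rows repeating a mature sequence (14, all with equal counts) were used once, leaving 1400. Replicates differed far beyond sampling noise (chi-square per degree of freedom 99.9 to 268.2). The count test was edgeR 4.0.16 under R 4.3.3 (filterByExpr with minimum count 10 and total 15, TMM, robust quasi-likelihood, two-sided, Benjamini-Hochberg over 492 rows), arm ratios with limma 3.58.1, and both were tested on simulated data. Alternatives were RLE, upper quartile, no factors, the RPM totals, no filter, DESeq2 1.42.0, repeated rows kept, and each library left out. SE is the log2 fold change divided by the square root of F. Members, lists and tests were chosen with earlier results of these data known. The rows named are the members, their guides, miR-98, some cell type markers, the tested arms of neighbouring hairpins and the 2 nearest profiles of the 3 most abundant members.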

Additional observations from a re-analysis of the deposited data

How the results depend on the processing

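No paired analysis was possible because model and control libraries share no replicate number. Leaving out let-7c-1-3p, the members called lower were let-7e-3p and let-7a-1/c-2-3p with DESeq2, without a filter and with upper quartile factors. None was called lower with TMM, RLE, total counts alone or the totals behind the RPM values, or with any library left out. The calls of let-7c-1-3p are shaped by its high control counts. They came without a filter, with upper quartile factors, without control 43 and with the totals behind the RPM values. Members called higher numbered 1 without a filter and with those totals (let-7i-3p in both), and 0 otherwise. Over all rows, 5 higher and 1 lower calls became 8 and 8 with RLE, 22 and 19 with DESeq2, 23 and 32 without a filter, 116 and 2 with the totals behind the RPM values, 17 higher with total counts alone, 33 lower with upper quartile factors, and 3 to 5 and 0 to 5 with each library left out in turn. The summed level (log2 difference) was 0.38 with the RPM totals and -0.55 to -0.15 with each library left out in turn. No member's arm ratio was called under the alternatives that gave it a value, 9 for let-7d-3p, let-7e-3p and let-7i-3p, 8 for let-7a-1/c-2-3p and 7 for let-7c-1-3p. With the minimum mean count of an arm lowered from 10 to 5, let-7a-2-3p was also tested. Its log2 ratio difference was then 0.26 (limma adjusted p = 0.885).

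Signs turned with the RPM totals for let-7d-3p (0.21), miR-98-3p (0.49), the guides let-7a-5p (0.30), let-7b-5p (0.44), let-7c-5p (0.29), let-7d-5p (0.57), let-7f-5p (0.33), let-7g-5p (0.40) and let-7i-5p (0.61), miR-99a-5p (0.27), miR-125b-2-3p (0.13), miR-100-5p (0.58), miR-125a-5p (0.22), miR-125b-5p (0.40), miR-99b-5p (0.61), miR-3084-3p (0.18) and miR-433-3p (0.39). With total counts alone those of let-7d-5p (0.082), let-7i-5p (0.12), miR-100-5p (0.093) and miR-99b-5p (0.13) turned, and with upper quartile factors those of let-7e-5p (-0.041), let-7f-2-3p (-0.055), miR-98-5p (-0.27), miR-100-3p (-0.12) and miR-99a-3p (-0.12). miR-98-5p was at -0.014 without a filter and at -0.11 to 0.10 with each library left out in turn, and the ratio difference of miR-98-3p at -0.59 to 0.079. With each library left out in turn, miR-100-3p was at -0.042 to 0.35, miR-99a-3p at -0.13 to 0.39, miR-125b-5p at -0.92 to 0.56 and miR-99b-5p at -0.31 to 0.047, turned by control 45 for the first 3 of these and by control 44 for miR-99b-5p. The cause was not tested. The signs of let-7e-3p, let-7i-3p and let-7a-1/c-2-3p held under every alternative that gave them a value. That of let-7c-1-3p is not counted, since it was tested through its control libraries alone.

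Depth limits let-7b-3p, let-7g-3p, let-7f-1-3p and let-7a-2-3p, which had too few reads to pass the count filter, and let-7c-1-3p, with 15 reads over the model libraries.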
